A study of Saccharomyces cerevisiae with 14 samples.

Results

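The genes described here are GCN4, which encodes the activator Gcn4, and the amino acid synthesis genes known to be under its control, 45 genes in all among 5871 protein-coding yeast genes measured. They were listed by name, not by any measured value, though with earlier results of these data known. The genes fall into arginine (5 genes), histidine (5), branched-chain (10), lysine (7), aromatic (8), threonine (5) and serine and amide (4) synthesis, with GCN4 as the 1 regulator. HIS3 was left out because it is deleted in the strain background. All 45 were found by symbol in the gene table of assembly R64.

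Gcn4 is a bZIP activator that binds upstream of genes of nearly every amino acid pathway when amino acids run short. Its own mRNA carries short upstream reading frames that keep translation low in well-fed cells. Gcn4 is known to recruit co-activators to its targets, SWI/SNF among them, an ATP-driven machine that moves and removes nucleosomes and whose motor subunit is Snf2.

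Nucleosomes were mapped by MNase-seq, in which micrococcal nuclease trims away linker DNA and leaves DNA held by nucleosomes. Budding yeast of strain BY4741 carried unaltered SNF2 (WT), a form named dAT, read here as lacking the AT-hook region, a form named dSnAC, read here as lacking the SnAC domain, the catalytically dead form K798A (CD), or no SNF2 (dSnf2). Cells of all 5 strains grew in rich medium (YPD) at 30 °C, so Gcn4 targets were seen without imposed starvation, and were fixed with 1% formaldehyde. Of 14 samples, 3 each were WT, dAT, dSnAC and CD and 2 were dSnf2, but the calls came as 1 list per strain made on merged samples, so no value has a replicate error and the strains could be compared by size alone, without p-values. The mutants share the single WT file, so their ratios are not independent of each other.

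The lists held 63263 (dSnAC) to 63471 (CD) nuclear calls and 31879115 (dSnAC) to 64957209 (WT) reads, with 514 to 1030 reads in the median call. An occupancy of 1 is that of the median call of a file. As a check of the labels, the SNF2 frame had an occupancy of 0.663 in WT and 0.00559 in dSnf2, or 0.844% of WT, while the other 3 mutants were between 0.731 and 0.796. The central stretch of HIS3 was at 0 in all 5 files. The LEU2 frame, which standard BY4741 lacks, was occupied in all 5 files (0.994 to 1.16). Over all genes, median promoter occupancy was 0.767 for WT, 0.603 for dAT, 0.639 for dSnAC, 0.684 for CD and 0.723 for dSnf2, a lower level in each mutant that every member ratio given here includes.

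Promoters of the amino acid synthesis genes held fewer nucleosomes than the median gene in WT and were lower still in most mutants. Promoter occupancy, averaged over the bases -300 to -1 before the start codon, had a median over the 45 genes of 0.659 for WT, 0.480 for dAT, 0.513 for dSnAC, 0.548 for CD and 0.635 for dSnf2. In WT it ran from 0.177 at ARG3 to 1.20 at TRP3, and 34 of 45 genes were below the median of all genes. Ratios are given as log2((mutant + 0.1) / (WT + 0.1)), which understates differences at sparsely occupied promoters. The members' median ratio was -0.35 for dAT, -0.30 for dSnAC, -0.17 for CD and -0.096 for dSnf2, against -0.30, -0.23, -0.15 and -0.085 over all genes. The members were thus lower than all genes by at most 0.067, and the difference moved with the window. With -200 to -1 bp it was -0.12 in dAT and -0.078 in dSnAC, and with -400 to -1 bp it was -0.014 in dAT and turned to the higher side in dSnAC and CD (0.022 and 0.0032). Each of these differences was smaller than the spread of the members, whose SD was 0.26 for dAT, 0.22 for dSnAC, 0.19 for CD and 0.16 for dSnf2.

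**Figure D1:**
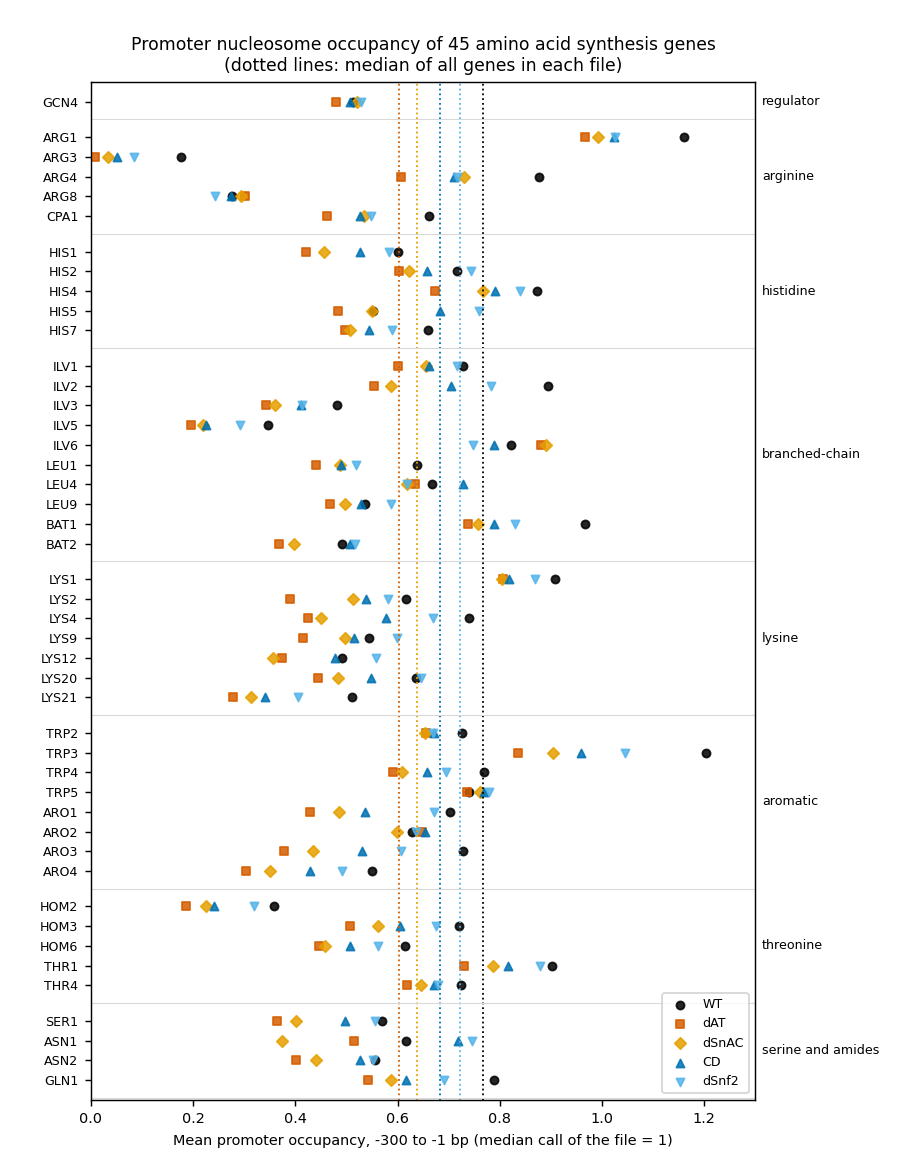
Promoter occupancy (x axis, median call of the file = 1) of the 45 genes, grouped by pathway (y axis), with 1 point per strain and dotted lines at each file's median over all genes. Most points lie left of the WT point of their row, ARG3 is lowest in all 5 files (0.177 in WT), and TRP3 is highest in WT (1.20).

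A ratio of 0.58 in either direction, about a 1.5-fold difference, was used as the size rule. In dAT 9 of 45 members were at or below -0.58, against a background of 11% of all genes; in dSnAC there were 4 (background 3.76%), in CD 1 (0.63%) and in dSnf2 1 (0.307%). The members' shares, 20% in dAT and 8.89% in dSnAC, were above the background, and in CD and dSnf2 the single gene was ARG3. With a pseudocount of 0.25 the rule was met by 2 members in dAT and 1 in dSnAC, against backgrounds of 3.56% and 0.784%. No member was at or above 0.58 in any mutant, where the background was 0.204%, 0.307%, 0.528% and 0.715% in dAT, dSnAC, CD and dSnf2. In all, 10 members passed the rule in at least 1 mutant and 35 in none. The share of all genes past the rule in at least 1 mutant is not given here.

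Counting error of the reads gave each ratio a 95% half-width, 0.096 at the median and 0.149 at most, and covers no difference between cultures. Beyond that error, 39 of 45 members were lower than WT for dAT, 36 for dSnAC, 32 for CD and 24 for dSnf2 (86.7%, 80%, 71.1% and 53.3%), against 82.7%, 77.4%, 71.5% and 49.8% of all genes. In the same order 2, 1, 3 and 4 members were higher (4.44%, 2.22%, 6.67% and 8.89%), against 4.79%, 4.77%, 5.47% and 6.85%. The members' shares in each direction were thus close to those of all genes. The mutants followed one order at most of these genes: 34 members (75.6%) had dAT lowest, then dSnAC, then CD, then dSnf2, as did 55.2% of all genes. The dAT file was lowest of the 4 mutants at 37 members (82.2%, against 73.8% of all genes) and dSnf2 highest at 39 (86.7%, against 73.6%). Lower occupancy than WT in all 4 mutants was seen at 31 members (68.9%, against 74.9% of all genes), and higher occupancy in all 4 at 0 (against 4.34%).

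**Figure D2:**
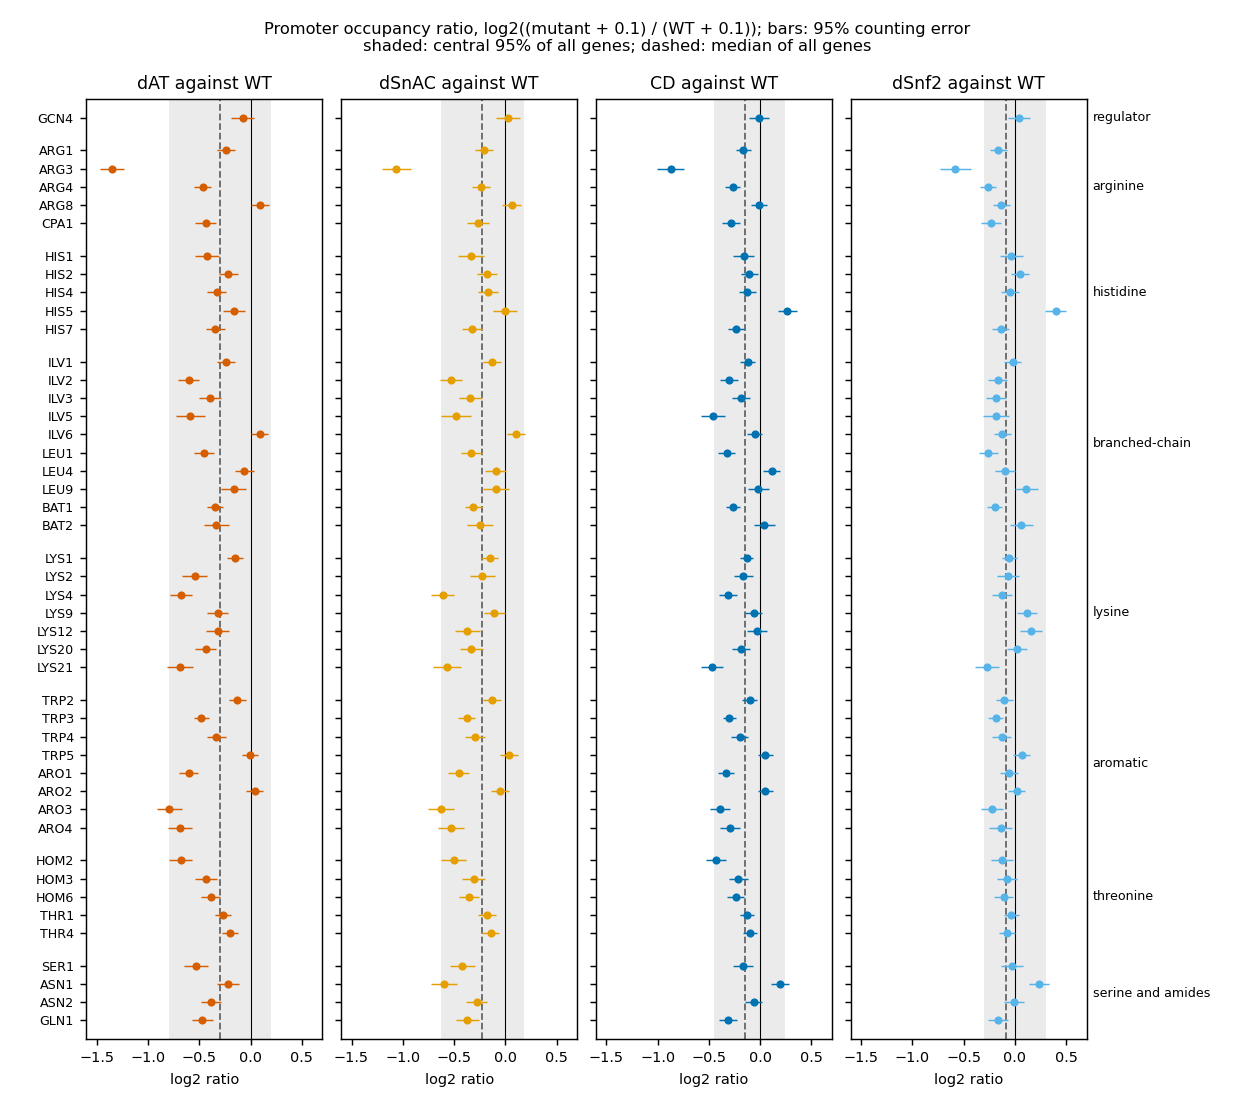
Promoter log2 ratio to WT (x axis) of each of the 45 genes (y axis, by pathway) in the 4 mutants, with bars for the 95% counting error. Grey shading spans the central 95% of all genes and the dashed line is their median. ARG3 lies left of the shading in all 4 panels, and HIS5 right of it in CD and dSnf2.

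GCN4 itself (YEL009C, chromosome V, 138918 to 139763, minus strand, sacCer3) had nearly the same window in all 5 files. Its promoter occupancy was 0.512 for WT, 0.480 for dAT, 0.521 for dSnAC, 0.507 for CD and 0.529 for dSnf2, with ratios of -0.077, 0.022, -0.012 and 0.040. All 4 ratios were within counting error, and all lay above the median of all genes. This window falls inside the long GCN4 leader, where a nucleosome centred 164 to 168 bp before the start codon had an occupancy of 0.917 in WT and 0.879 to 0.942 in the mutants. The depleted region, from that dyad to one 63 to 67 bp inside the frame, was 231 to 233 bp wide in all 5 files.

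Further upstream GCN4 differed between files. From -1000 to -901 bp its occupancy was 0.416 for WT, 0.112 for dAT, 0.0574 for dSnAC, 0.0995 for CD and 0.167 for dSnf2. From -400 to -301 bp it was 0.620 for WT, 0.419 for dAT, 0.305 for dSnAC, 0.513 for CD and 0.548 for dSnf2. Both stretches were highest in WT and lowest in dSnAC, as were those from -800 to -701 bp and from -500 to -401 bp. Others were not: from -900 to -801 bp and from -700 to -601 bp dSnf2 was highest (0.194 and 0.317, WT 0.141 and 0.221). From -600 to -501 bp WT was lowest (0.592, mutants 0.597 to 0.662). The 100 bp between -200 and -101 bp stayed between 0.879 and 0.942. The GCN4 frame was at 0.574 for WT, 0.715 for dAT, 0.697 for dSnAC, 0.627 for CD and 0.639 for dSnf2, higher in each mutant. The neighbour upstream is YEL008W, divergent and 748 bp away, so the outermost stretch lies beyond its start codon.

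Arginine synthesis held the member with the lowest ratio in every mutant. ARG3, the ornithine carbamoyltransferase (YJL088W, chromosome X, 268799 to 269815, plus strand), had a promoter occupancy of 0.177 for WT, 0.00846 for dAT, 0.0324 for dSnAC, 0.051 for CD and 0.0849 for dSnf2. The 4 mutants were all below WT, dAT furthest and dSnf2 least, with ratios of -1.35, -1.06, -0.87 and -0.58. The window rested on 387 reads in WT and on 11, 40, 104 and 125 in dAT, dSnAC, CD and dSnf2. The window held a weak call centred at -193 bp with an occupancy of 0.316 in WT, and at -152, -181, -192 and -196 bp with 0.0173, 0.037, 0.0857 and 0.134 in the mutants. A second weak call, 31 to 44 bp before the start codon, had 0.0602 for WT, 0.0409 for dSnAC, 0.023 for CD and 0.0561 for dSnf2 and was not called in dAT. Both sat between nucleosomes that kept their places, at -412 bp in WT and -406 to -403 bp in the mutants on one side and at 113 to 117 bp on the other. The nucleosome inside the frame was also lower, 1.33 for WT, 0.907 for dAT, 1.02 for dSnAC, 1.16 for CD and 1.15 for dSnf2. With a window of -400 to -1 bp the ARG3 ratios were -0.66, -0.57, -0.37 and -0.17, and with a pseudocount of 0.25 they were -0.72, -0.60, -0.50 and -0.35, so in CD and dSnf2 the size rule was no longer met under either, nor in dSnAC with the longer window.

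The other arginine genes were spread widely in level. ARG8, the acetylornithine aminotransferase, was at 0.277 for WT, 0.302 for dAT, 0.293 for dSnAC, 0.273 for CD and 0.244 for dSnf2, the highest mean ratio of the pathway. Its ratios, 0.094, 0.061, -0.013 and -0.13, changed sign in dAT and dSnAC with a window of -200 to -1 bp (-0.37 and -0.26). ARG8 had few reads of its own near the gene: the call at -105 bp in WT had an occupancy of 0.0864 and the mutants' 0.0361 to 0.0668, while the level came from the edge of a nucleosome centred between -333 and -322 bp. ARG1, the argininosuccinate synthetase, stayed densely covered, at 1.16 for WT, 0.968 for dAT, 0.993 for dSnAC, 1.02 for CD and 1.03 for dSnf2, with a call of 1.99 at -145 bp in WT and of 1.70 to 1.76 in the mutants. ARG4, the argininosuccinate lyase, had ratios of -0.47, -0.24, -0.27 and -0.26, and CPA1, the small subunit of carbamoyl phosphate synthetase, -0.44, -0.27, -0.29 and -0.23. Of the CPA1 window, 26% lies over YOR302W, the short upstream frame annotated in its leader.

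Histidine synthesis held the member with the highest ratio in dSnf2. HIS5, the histidinol-phosphate aminotransferase (YIL116W, chromosome IX, 142928 to 144085, plus strand), had a promoter occupancy of 0.552 for WT, 0.484 for dAT, 0.550 for dSnAC, 0.682 for CD and 0.758 for dSnf2. It was below WT in dAT and above WT in CD and dSnf2, with ratios of -0.16, -0.0051, 0.26 and 0.40. A pair of nucleosomes in this promoter differed in opposite ways in dAT, dSnAC and CD. The call 252 to 266 bp before the start codon had an occupancy of 0.510 for WT, 0.661 for dAT, 0.745 for dSnAC, 0.915 for CD and 1.03 for dSnf2, higher in every mutant. The call at about -75 bp had 0.732 for WT, 0.484 for dAT, 0.545 for dSnAC, 0.627 for CD and 0.722 for dSnf2. It was lower in dAT, dSnAC and CD and nearly at the WT level in dSnf2. With a window of -200 to -1 bp, which leaves out most of the upstream call, the HIS5 ratios were -0.44, -0.29, -0.017 and 0.098.

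At HIS4, the multifunctional enzyme whose promoter is a classic target of Gcn4 with Bas1 and Rap1, the window held 0.873 for WT, 0.673 for dAT, 0.766 for dSnAC, 0.791 for CD and 0.840 for dSnf2. These ratios were modest (-0.33, -0.17, -0.13 and -0.049) but the nucleosome next to the start codon, centred between -91 and -83 bp, had 1.59 for WT, 0.892 for dAT, 1.05 for dSnAC, 1.23 for CD and 1.43 for dSnf2. The nucleosome upstream of it was centred at -340 bp in WT and at -313, -310, -322 and -327 bp in the mutants in the order dAT, dSnAC, CD, dSnf2, with 0.807 in WT and 0.892 to 1.18 in the mutants. HIS4 thus had less occupancy near the start codon and more at the upstream nucleosome, and its ratios with a window of -200 to -1 bp were -0.75, -0.55, -0.34 and -0.14. BIK1, the upstream neighbour, overlaps 11.7% of the HIS4 window. HIS4, like ARG1, BAT2, SER1 and ASN2, was chosen for this description after its values were seen.

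HIS1, the ATP phosphoribosyltransferase of the first step, was at 0.601 for WT, 0.421 for dAT, 0.456 for dSnAC, 0.527 for CD and 0.584 for dSnf2. HIS7, the imidazole glycerol phosphate synthase, had the lowest mean ratio of the pathway, at 0.659 for WT, 0.498 for dAT, 0.507 for dSnAC, 0.543 for CD and 0.589 for dSnf2. Both were lowest in dAT, then dSnAC, CD and dSnf2, and below WT in each. HIS2, the histidinol phosphatase, was at -0.22, -0.18, -0.11 and 0.048.

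**Figure D3:**
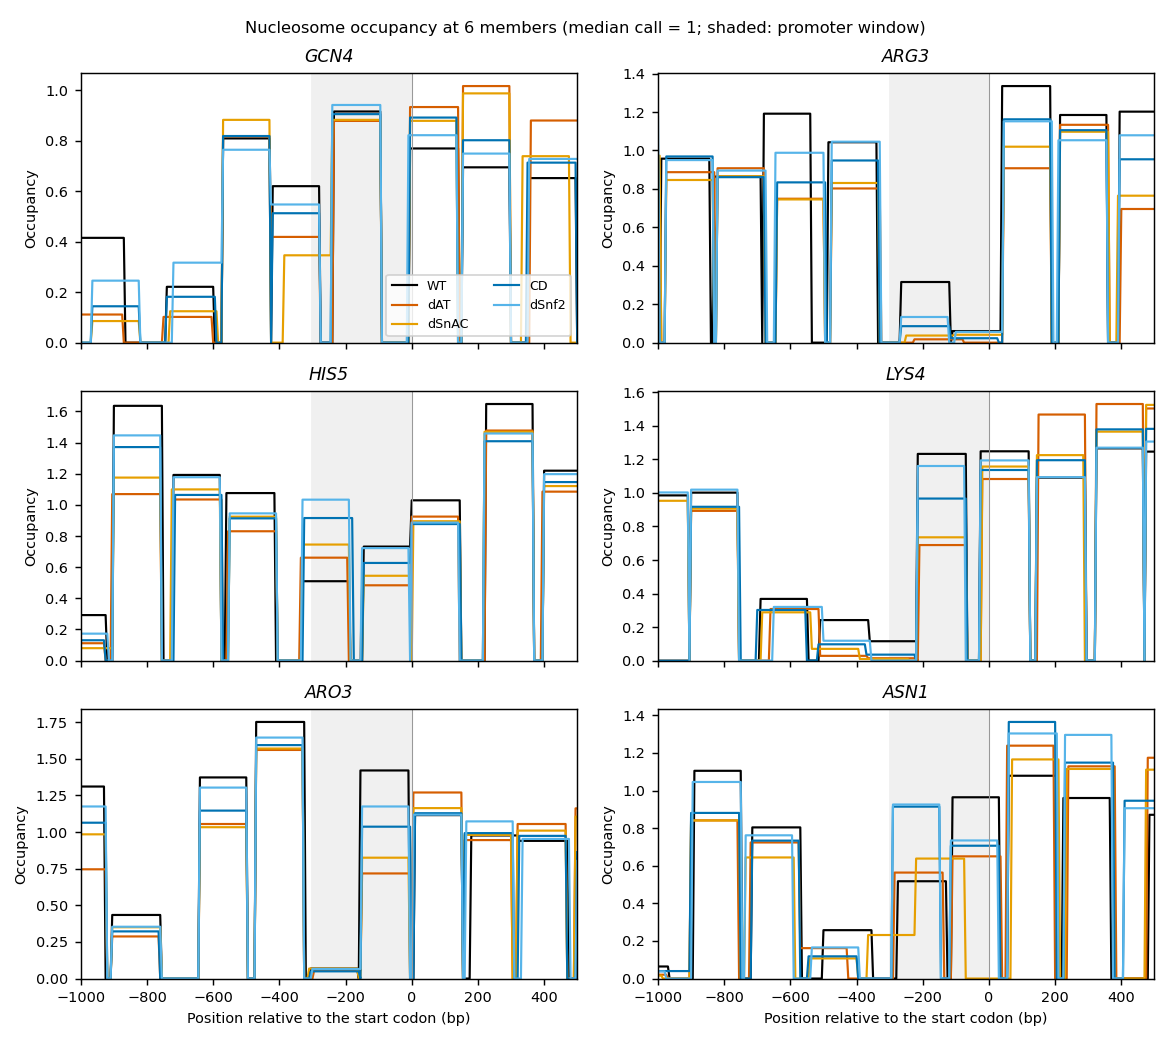
Occupancy (y axis, median call = 1) against position relative to the start codon in bp (x axis) at 6 of the genes, 1 line per strain, with the -300 to -1 bp window shaded. The weak ARG3 call near -193 bp is highest in WT (0.316), the upstream HIS5 call is highest in dSnf2 (1.03), and the LYS4 and ARO3 calls before the start codon are lowest in dAT (0.689 and 0.717).

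Among the 10 branched-chain genes, which make isoleucine, valine and leucine, ILV2 and ILV5 passed the size rule in dAT. ILV2, the catalytic subunit of acetolactate synthase, was at 0.894 for WT, 0.554 for dAT, 0.587 for dSnAC, 0.705 for CD and 0.784 for dSnf2, with ratios of -0.60, -0.53, -0.30 and -0.17. ILV5, the acetohydroxyacid reductoisomerase, was at 0.346 for WT, 0.197 for dAT, 0.219 for dSnAC, 0.224 for CD and 0.292 for dSnf2, with ratios of -0.59, -0.48, -0.46 and -0.19. Both were below WT in every mutant. At ILV5 a sparse call at about -284 bp had 0.287 for WT, 0.0188 for dAT, 0.0292 for dSnAC, 0.0648 for CD and 0.137 for dSnf2. This resembled ARG3 in that a weak WT nucleosome was nearly absent from dAT. For ILV5 the dAT ratio was -0.34 with a window of -200 to -1 bp, and the dSnf2 ratio changed sign to 0.075 with a window of -400 to -1 bp.

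ILV6, the regulatory subunit of acetolactate synthase, went the other way in dAT and dSnAC. Its promoter was at 0.822 for WT, 0.88 for dAT, 0.890 for dSnAC, 0.788 for CD and 0.747 for dSnf2, with ratios of 0.088, 0.10, -0.054 and -0.12. The coding frame of its neighbour STP22 covers 51% of that window. LEU4, the main alpha-isopropylmalate synthase, was at 0.667 for WT, 0.635 for dAT, 0.619 for dSnAC, 0.729 for CD and 0.618 for dSnf2, highest in CD. ILV3, the dihydroxyacid dehydratase, was at 0.482 for WT, 0.342 for dAT, 0.360 for dSnAC, 0.411 for CD and 0.413 for dSnf2, below WT in each mutant. BAT1 and BAT2, the mitochondrial and cytosolic aminotransferases, had dAT ratios of -0.35 and -0.33 but dSnf2 ratios of -0.20 and 0.063. ILV1, LEU1 and LEU9 ranged from -0.45 (LEU1) to -0.17 (LEU9) in dAT and from -0.26 (LEU1) to 0.11 (LEU9) in dSnf2.

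Lysine synthesis in yeast runs through alpha-aminoadipate, and its 7 genes had a median ratio of -0.44 for dAT, -0.33 for dSnAC, -0.16 for CD and -0.055 for dSnf2. LYS4, the homoaconitase, was at 0.741 for WT, 0.425 for dAT, 0.451 for dSnAC, 0.578 for CD and 0.668 for dSnf2, with ratios of -0.68, -0.61, -0.31 and -0.13. The nucleosome at about -142 bp carried that difference, with 1.23 for WT, 0.689 for dAT, 0.735 for dSnAC, 0.967 for CD and 1.16 for dSnf2. LYS4 was thus lowest in dAT and closest to WT in dSnf2, where it was still below WT beyond counting error.

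LYS20 and LYS21 encode a pair of homocitrate synthases, the entry point of the pathway, and are nearly identical in sequence. LYS21 was at 0.511 for WT, 0.279 for dAT, 0.313 for dSnAC, 0.341 for CD and 0.404 for dSnf2, with ratios of -0.69, -0.57, -0.47 and -0.28, the lowest mean of the pathway. LYS20 was at 0.636 for WT, 0.443 for dAT, 0.484 for dSnAC, 0.548 for CD and 0.646 for dSnf2. Both were lowest in dAT, and LYS20 reached the WT level in dSnf2. Their frames were sparse in all 5 files, 0.254 to 0.280 for LYS20 and 0.232 to 0.253 for LYS21, against an all-gene median of 0.865 in WT. The placing of reads shared by such copies was not stated in any label used here, so the levels of this pair are uncertain.

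LYS9, the glutamate-forming saccharopine dehydrogenase, had the highest mean ratio of the pathway, at 0.543 for WT, 0.415 for dAT, 0.498 for dSnAC, 0.515 for CD and 0.598 for dSnf2. LYS12, the homoisocitrate dehydrogenase, was at 0.491 for WT, 0.373 for dAT, 0.356 for dSnAC, 0.478 for CD and 0.558 for dSnf2. Both were below WT in dAT and above it in dSnf2. LYS1, the lysine-forming saccharopine dehydrogenase, was at -0.15 in both dAT and dSnAC, and LYS2, the alpha-aminoadipate reductase, at -0.55 in dAT and -0.22 in dSnAC.

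Aromatic synthesis held 3 of the 9 members past the rule in dAT, and all act in the shared part of the pathway before chorismate. ARO3, a DAHP synthase of the first step, was at 0.728 for WT, 0.379 for dAT, 0.435 for dSnAC, 0.531 for CD and 0.607 for dSnf2, with ratios of -0.79, -0.63, -0.39 and -0.23. ARO4, the other DAHP synthase, was at 0.551 for WT, 0.303 for dAT, 0.351 for dSnAC, 0.429 for CD and 0.490 for dSnf2, with ratios of -0.69, -0.53, -0.30 and -0.14. ARO1, the pentafunctional arom protein, was at 0.703 for WT, 0.428 for dAT, 0.485 for dSnAC, 0.536 for CD and 0.672 for dSnf2, with ratios of -0.60, -0.46, -0.34 and -0.057.

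In each of these 3 genes the difference sat in the nucleosome just before the start codon. For ARO3 the call at about -80 bp had 1.42 for WT, 0.717 for dAT, 0.825 for dSnAC, 1.04 for CD and 1.17 for dSnf2. For ARO4 the call at about -126 bp had 0.987 for WT, 0.485 for dAT, 0.601 for dSnAC, 0.743 for CD and 0.889 for dSnf2. For ARO1 the call at about -42 bp had 1.39 for WT, 0.774 for dAT, 0.92 for dSnAC, 1.05 for CD and 1.35 for dSnf2. Its dyad stayed within 6 bp of the WT place in every mutant, and its occupancy was lowest in dAT and came back towards WT in the order dSnAC, CD, dSnf2. ARO2, the chorismate synthase that ends the shared part, did not share this: its ratios were 0.040, -0.056, 0.052 and 0.015.

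The tryptophan branch beyond chorismate held no gene past the rule. TRP5, the tryptophan synthase, was at 0.741 for WT, 0.736 for dAT, 0.761 for dSnAC, 0.770 for CD and 0.780 for dSnf2, with all 4 ratios within counting error. The frame of its neighbour PGD1 covers 24% of the TRP5 window. TRP2, TRP3 and TRP4, the enzymes between chorismate and indole glycerol phosphate, had dAT ratios of -0.13, -0.48 and -0.33 and dSnf2 ratios of -0.10, -0.19 and -0.13.

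In threonine synthesis all 5 genes were below WT in all 4 mutants, as were 74.9% of all genes. In dSnf2 the ratios of HOM3 (-0.079) and THR1 (-0.034) were within counting error. HOM2, the aspartic beta-semialdehyde dehydrogenase, had the lowest mean, at 0.359 for WT, 0.186 for dAT, 0.224 for dSnAC, 0.241 for CD and 0.32 for dSnf2, with ratios of -0.68, -0.50, -0.43 and -0.13. The frame of YDR157W, 24 bp upstream, covers 92% of its window. THR4, the threonine synthase of the last step, had the highest mean, at 0.725 for WT, 0.618 for dAT, 0.647 for dSnAC, 0.672 for CD and 0.680 for dSnf2. HOM3, the aspartate kinase, HOM6, the homoserine dehydrogenase, and THR1, the homoserine kinase, had dAT ratios of -0.43, -0.39 and -0.27.

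ASN1, an asparagine synthetase (YPR145W, chromosome XVI, 822620 to 824338, plus strand), was the member in which dSnAC stood apart from dAT. Its promoter was at 0.617 for WT, 0.514 for dAT, 0.374 for dSnAC, 0.719 for CD and 0.745 for dSnf2, with ratios of -0.22, -0.60, 0.19 and 0.24. The ASN1 window held nucleosomes at -203 and -40 bp in WT, and similar pairs in dAT, CD and dSnf2. In dSnAC a single call at -147 bp (0.638) and a weak one at -295 bp (0.232) stood in their place. The upstream member of the pair had 0.517 for WT, 0.564 for dAT, 0.914 for CD and 0.926 for dSnf2, and the one at about -40 bp had 0.964 for WT, 0.650 for dAT, 0.706 for CD and 0.734 for dSnf2. CD and dSnf2 were thus higher upstream and lower near the start codon, as CD was at HIS5. With a window of -200 to -1 bp the ASN1 ratios of CD and dSnf2 turned to -0.13 and -0.074. ASN1 and ASN2 are close paralogs, so shared reads make their levels uncertain.

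GLN1, the glutamine synthetase, had the lowest mean of this group, at 0.788 for WT, 0.541 for dAT, 0.587 for dSnAC, 0.616 for CD and 0.692 for dSnf2. ASN2, the second asparagine synthetase, and SER1, the phosphoserine aminotransferase, had dAT ratios of -0.38 and -0.53 and dSnf2 ratios of -0.0075 and -0.031. All 4 genes of the group were below WT in dAT and dSnAC, as were 5286 and 5232 of all 5871 genes.

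Over the 21 members not singled out by the naming rule, promoter ratios ran from -0.55 (LYS2) to 0.040 (ARO2) in dAT, from -0.42 (SER1) to -0.056 (ARO2) in dSnAC, from -0.33 (LEU1) to 0.052 (ARO2) in CD and from -0.26 (ARG4) to 0.11 (LEU9) in dSnf2. The 14 members with a divergent upstream neighbour had a median of -0.31 in dAT and -0.065 in dSnf2, and the 31 in tandem -0.39 and -0.11. These medians were closer to each other than the spread among members. The windows of 12 members overlap the frame of another gene, and without them the median ratios were -0.38, -0.31, -0.19 and -0.10.

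Averaged along the genes, the shape of the promoter was distinct from that of the typical gene. The mean profile of the members was lowest 170 bp before the start codon in WT, at 0.288, whereas that of all genes was lowest at 130 bp, at 0.465. In dAT these minima were 0.205 at 180 bp and 0.352 at 130 bp. Between -100 and -1 bp the members' mean occupancy was 73.9% of WT for dAT, 77.2% for dSnAC, 85.1% for CD and 90.1% for dSnf2, against 81.6%, 85.3%, 90.1% and 93.9% over all genes. Upstream, between -300 and -201 bp, it was 82.3%, 87.9%, 91.7% and 96.6%, against 79.5%, 84.0%, 89.3% and 94.5%. In the stretch between these, from -200 to -101 bp, it was 73%, 80.2%, 89.9% and 101%, against 76.8%, 81.8%, 88.4% and 94.2%. The members were thus further below WT than all genes next to the start codon in every mutant, between -200 and -101 bp in dAT and dSnAC but not in CD and dSnf2, and in no mutant between -300 and -201 bp. From 0 to 99 bp inside the frame they were at 99.8%, 97.4%, 96.8% and 97.1%, where all genes were at 91.8%, 93.4%, 94.6% and 95.8%.

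**Figure D4:**
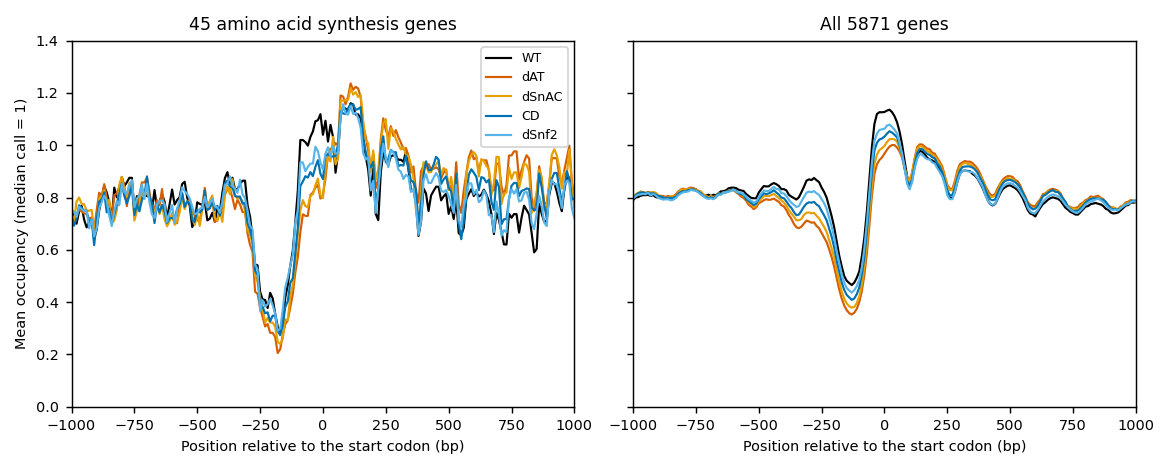
Mean occupancy (y axis, median call = 1) against position relative to the start codon in bp (x axis), over the 45 genes on the left and all 5871 genes on the right, 1 line per strain. In both panels dAT has the deepest minimum (0.205 and 0.352). In each 100 bp stretch from 100 to 599 bp inside the frame, mean occupancy in dAT and dSnAC is above WT, more so for the 45 genes.

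The coding frames differed from WT in the other direction than the promoters. Median frame occupancy of the members was 0.852 for WT, 0.968 for dAT, 0.968 for dSnAC, 0.901 for CD and 0.874 for dSnf2, while over all genes it was 0.865, 0.895, 0.891, 0.882 and 0.868. Frame ratios were above 0 at 38 of 45 members for dAT, 41 for dSnAC, 34 for CD and 26 for dSnf2, against 57.4%, 56.9%, 54.1% and 46.4% of all genes. Their medians were 0.17, 0.15, 0.068 and 0.023, against 0.035, 0.026, 0.010 and -0.0026 over all genes. Of the members, 36, 37, 32 and 26 were above the all-gene median of the same mutant. Most members therefore combined a lower promoter with a higher frame in dAT and dSnAC.

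No member frame passed 0.58 in either direction in any mutant. The backgrounds were 0.647%, 0.273%, 0.119% and 0.119% on the lower side and 0.818%, 0.46%, 0.392% and 0.255% on the higher side, in the order dAT, dSnAC, CD, dSnf2. ILV6 came nearest, with a frame at 0.671 for WT, 1.03 for dAT, 0.965 for dSnAC, 0.817 for CD and 0.731 for dSnf2. ILV5 was similar, with a frame at 0.362 for WT, 0.573 for dAT, 0.557 for dSnAC, 0.472 for CD and 0.469 for dSnf2. Both were higher than WT in every mutant and highest in dAT. ARG3 was the opposite, with a frame at 1.04 for WT, 0.790 for dAT, 0.85 for dSnAC, 0.901 for CD and 0.942 for dSnf2, lower in every mutant.

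Nucleosome positions were compared through the depleted region, taken as the widest distance between neighbouring dyads around the start codon, and the dyad on its gene side, called +1. With every call kept, the members' depleted region had a median of 206 bp for WT, 200 bp for dAT, 216 bp for dSnAC, 213 bp for CD and 226 bp for dSnf2, against 241 or 242 bp over all genes. Calls below 0.25 of the median call, 3.52% to 4.16% of each list, split many of these regions, and a smallest distance of 148 bp between dyads stood in all 5 lists. Without such weak calls, the members' median was 283 bp for WT, 286 bp for dAT, 287 bp for dSnAC, 285 bp for CD and 287 bp for dSnf2, wider than the 265 to 268 bp over all genes. The order of members and all genes thus turned with the treatment of weak calls, a setting chosen after the data were seen.

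Most members kept the width of the depleted region within 20 bp of WT. It was wider or narrower by 20 bp or more at 10, 9, 10 and 10 members in dAT, dSnAC, CD and dSnf2 with every call kept (22.2%, 20%, 22.2% and 22.2%, backgrounds 17.8%, 15.9%, 13.2% and 12.6%), and at 11, 11, 13 and 14 without weak calls (24.4%, 24.4%, 28.9% and 31.1%, backgrounds 14.5%, 12.5%, 11.8% and 11.6%). With every call kept it was wider by 20 bp or more at 6, 6, 7 and 8 members in dAT, dSnAC, CD and dSnf2 (backgrounds 9.24%, 8.22%, 6.51% and 6.53%), and narrower at 4, 3, 3 and 2 (8.51%, 7.66%, 6.7% and 6.03%). At 15, 15, 15 and 14 members the widest gap was another one than in WT (33.3%, 33.3%, 33.3% and 31.1%), against 20.9%, 19.5%, 16.9% and 15.6% of all genes. Without weak calls the region was wider at 6, 7, 6 and 7 (8.05%, 6.82%, 5.83% and 5.51%) and narrower at 5, 4, 7 and 7 (6.45%, 5.68%, 6.01% and 6.14%). HIS4 kept the same gap under both, at 257 bp for WT, 222 bp for dAT, 226 bp for dSnAC, 235 bp for CD and 237 bp for dSnf2, narrower in each mutant.

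The +1 dyad was displaced by 20 bp or more at 5 members for dAT, 5 for dSnAC, 6 for CD and 4 for dSnf2, against 6.91%, 6.05%, 5.89% and 6.15% of all genes, and mostly to the upstream side (4, 4, 6 and 4). Without weak calls it was displaced at 2, 4, 4 and 5 members (4.92%, 4.32%, 4.46% and 4.82%). Displaced in at least 1 mutant were 10 members, ARG3, ARG8, HIS1, ILV2, ILV3, LEU4, LYS9, LYS12, LYS20 and ASN1, and in all 4 mutants LYS9 and LYS20. The all-gene shares for displacement in at least 1 mutant and in all 4 are not given here. At ARG3 (41 bp in dAT), ARG8 (-66 bp in CD) and ILV3 (-29 bp in dAT) the displaced dyad was a weak call with an occupancy of 0.046 or less in that mutant. At LYS20 it was a sparse WT call at -244 bp (0.140), matched to calls of 0.109 to 0.302 in the mutants. Without weak calls the LYS20 +1 was another dyad, at 52 bp in WT, and differed by only -12 to -14 bp. At HIS1, LYS12, ILV2 and LEU4 a fuller nucleosome was displaced. HIS1 differed by -23 bp in dAT (98 bp in WT, 75 bp in dAT) and LYS12 by -22 bp in dSnf2 (-37 bp in WT, -59 bp in dSnf2). ILV2 differed by -27 bp in dSnAC and LEU4 by -35 bp in CD (37 bp in WT, 2 bp in CD). Without weak calls the HIS1 +1 was another dyad, at -82 bp in WT, and differed by -3 bp in dAT. The ASN1 difference of 56 bp in dSnAC matched the WT call at -203 bp to the call at -147 bp. That dSnAC call stood in place of a WT pair, so it need not be the same nucleosome.

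At LYS9 a full nucleosome was displaced alike in all 4 mutants. The nucleosome before the start codon was centred at -31 bp in WT and at -88, -85, -86 and -84 bp in the mutants in the order dAT, dSnAC, CD, dSnf2, with an occupancy of 1.08 for WT, 0.579 for dAT, 0.636 for dSnAC, 0.784 for CD and 0.959 for dSnf2. The next dyad inside the gene lay at 136 bp in WT and at 107 to 117 bp in the mutants. All 4 mutants thus stood together, 53 to 57 bp upstream of WT. A weak WT call at -186 bp (0.0699) was not called in the mutants, so with every call kept the depleted region was wider in the mutants (155 bp in WT, 233 to 250 bp) and without weak calls narrower (303 bp in WT, same values in the mutants).

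BAT2 had the same arrangement. Its nucleosome before the start codon was at -55 bp in WT and at -103, -107, -105 and -104 bp in the mutants in the same order, and a weak WT call at -205 bp (0.158) was not called in the mutants. The occupancy was 0.912 for WT, 0.680 for dAT, 0.749 for dSnAC, 0.979 for CD and 0.995 for dSnf2. At LYS20 the full nucleosome before the start codon was at -96 bp in WT and at -121, -122, -127 and -133 bp in the mutants. In WT this dyad lay 148 bp from the next one, at 52 bp, which is the smallest distance in the lists. The dSnf2 dyads at -281 and -133 bp were equally close. Whether this limit of the calls set the LYS20 positions was not tested. In LYS9, BAT2 and LYS20 every mutant lay upstream of WT, with differences among the mutants (at most 12 bp) smaller than their distance from WT. At ASN2 the displacement was in dSnf2, where the nucleosome before the start codon was at -87 bp (0.904), while it was at -26 bp in WT (1.10) and at -35, -36 and -44 bp in dAT, dSnAC and CD. Its difference of -61 bp in dSnf2 was seen without weak calls, since with every call kept the WT dyad had no match there.

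**Figure D5:**
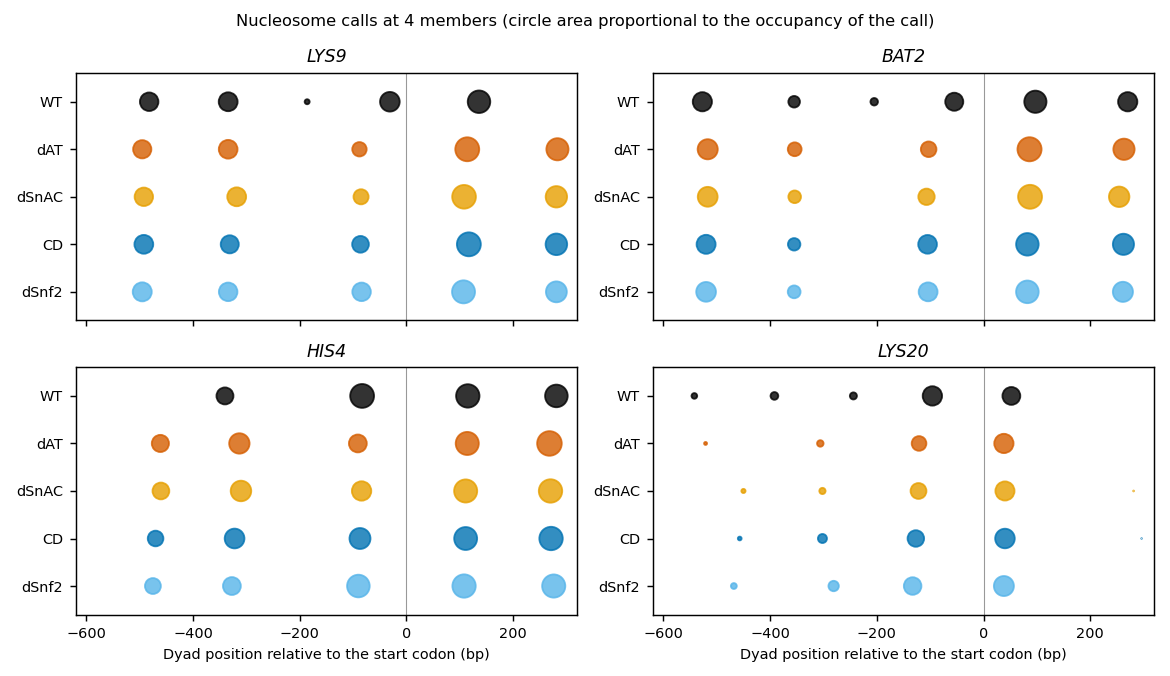
Nucleosome calls at LYS9, BAT2, HIS4 and LYS20 (x axis, dyad position relative to the start codon in bp) in the 5 strains (y axis), with circle area proportional to occupancy. The call before the start codon lies further upstream in all 4 mutants than in WT at LYS9 (-31 bp in WT), BAT2 (-55 bp) and LYS20 (-96 bp), and at HIS4 the upstream neighbour lies closer to it.

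At some members a weak WT nucleosome dropped below 0.25 of the median call in every mutant, which opened a much wider gap once weak calls were left out. At ARG3 that gap was 306 bp in WT and 518 to 522 bp in the mutants. At ILV5 it was 201 bp in WT and 383, 382, 351 and 351 bp. At SER1 it was 314 bp in WT and 519 bp in all 4 mutants, as a call at -373 bp had 0.264 for WT, 0.0298 for dAT, 0.07 for dSnAC, 0.108 for CD and 0.181 for dSnf2. In each of the 3 genes the WT call was only just above the limit, at 0.316, 0.287 and 0.264.

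The mutants were also set against each other. From dSnAC to dAT the members' median ratio was -0.094, against -0.067 over all genes, and it ranged from -0.32 (LYS2) to 0.38 (ASN1). No member passed 0.58, where the background was 0.102% below and 0.0681% above. From dSnf2 to CD the median was -0.098, against -0.068, with a range from -0.30 (HOM2) to 0.21 (LEU4), and again no member passed (0.17% and 0.119%). From dSnf2 to dAT the median was -0.28, against -0.22, and 1 member, ARG3 at -0.77, was at or below -0.58 (background 3.75%) and none at or above 0.58 (0.0681%). The same direction, lower in dAT than in dSnf2, held at 41 of 45 members (91.1%, against 87.9% of all genes), and ARG8 (0.23) and ILV6 (0.21) were the furthest on the other side.

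A second list held 23 other enzymes of amino acid synthesis and 13 regulators. Of these 36 genes 6 were at or below -0.58 in dAT, 1 in dSnAC and 0 in CD and dSnf2 (backgrounds 11%, 3.76%, 0.63% and 0.307%). Among the 45 members the counts were 9, 4, 1 and 1. None of the 36 was at or above 0.58 in any mutant (0.204%, 0.307%, 0.528% and 0.715%). The median ratios of the 36, -0.34, -0.27, -0.16 and -0.099, were close to those of the 45 members. The lowest was GCN2, the kinase that raises GCN4 translation, with 1.08 in WT and 0.522 in dAT (-0.92). It was followed by the proline gene PRO2 (-0.78) and LEU2 (-0.76), the isopropylmalate dehydrogenase. Standard BY4741 lacks the LEU2 frame, so the source of the LEU2 reads is uncertain. The glutamate dehydrogenases GDH3 (-0.67) and GDH1 (-0.62) and the eIF2B subunit GCN3 (-0.62) were the others past the rule in dAT.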

How the data were processed

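The authors deposited lists of nucleosome calls, 1 per strain, made on merged replicates per the labels (WT and CD on replicates 1 to 3, dAT on 2 and 3, dSnAC on 1 and 3, dSnf2 on 1 and 2). The submitters' processing notes name Bowtie and sacCer3. Which nucleosome caller was used is not given in the sources here. Each deposited occupancy, a coverage signal per the file headers, was a whole multiple of the smallest one in its file (100% of calls within 0.01), and was read as reads. The deposited conditional position, a fraction, was not used, and the other deposited columns, positions and their SDs, are in bp.

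Reads were divided by the median call of the 16 chromosomes outside ribosomal DNA (chromosome XII, 451000 to 469000) and drawn as 147 bp footprints. Genes came from the RefSeq table of R64. Strand was read from systematic names, and genes in the outer 10 kb were left out. Depleted regions had midpoints from -350 to 50 bp, and dyads were matched as mutual nearest within 73 bp. Python 3.11.15, numpy 2.4.6 and pandas 2.3.3 were used. On simulated data 99 or 100 of 100 promoters scaled by 0.5, and 100 of 100 scaled by 2.0, were recovered in each mutant. Sparse promoters such as those of ARG3 (0.177 in WT) and ARG8 (0.277) were not drawn, and smaller changes were not simulated. Described in every file were GCN4, the highest and lowest mean ratio of each pathway, members past 0.58 and members with a displaced +1 (24 genes). Of the other pathway genes listed, 36 were matched by symbol and 1 was not. Alternatives changed the scaling, pseudocount, window, size rule, footprint, call filter, gene set, distances and midpoints. The members and lists were chosen with earlier results of these data known. Gcn4 motifs and promoter sequences were not analysed here. Counting intervals are 95% and cover counting error only.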

Additional observations from a re-analysis of the deposited data

Results flagged for a closer look

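Of the 45 members 7 were higher than WT in at least 1 mutant and lower in at least 1 other, beyond 95% counting error in both. That is 15.6% of the members, against 3.59% of all genes. The differences between mutants were not tested, as each strain has 1 pooled file. ARG8 had a promoter log2 ratio of 0.0936 in dAT and -0.132 in dSnf2. ILV6 had 0.0882 in dAT, 0.103 in dSnAC and -0.123 in dSnf2. In these genes dAT was above WT and dSnf2 below it, the reverse of the order of most members. HIS5 had -0.16 in dAT, 0.262 in CD and 0.396 in dSnf2. ASN1 had -0.222 for dAT, -0.598 for dSnAC, 0.192 for CD and 0.237 for dSnf2. LYS9 had -0.322 in dAT and 0.118 in dSnf2. LYS12 had -0.319 in dAT, -0.371 in dSnAC and 0.156 in dSnf2. LEU4 had 0.111 in CD and -0.0956 in dSnf2, which was the single case among the members in which CD and dSnf2 lay on opposite sides of WT, both beyond counting error, as did 0.494% of all genes. In LYS9, LYS12 and LEU4 the higher ratio was not matched by a fuller call, but a call lay further upstream and so more within the window. At LYS9 it was at -84 bp with 0.959 in dSnf2 (-31 bp and 1.08 in WT). At LYS12 it was at -59 bp with 1.23 in dSnf2 (-37 bp and 1.28 in WT). At LEU4 it was at 2 bp with 1.24 in CD (37 bp and 1.31 in WT). The pattern of ratios on both sides of WT also depended on the window. With -200 to -1 bp ARG8 (-0.37 in dAT) and ASN1 (-0.13 in CD, -0.074 in dSnf2) were below WT in every mutant. HIS5 was then at -0.017 in CD and 0.098 in dSnf2. ILV6, LEU4, LYS9 and LYS12 kept ratios on both sides of WT, but 51% of the ILV6 window lies over STP22. The all-gene share for that window is not given here.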

How the results depend on the processing

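No paired analysis was possible because the calls were made on merged replicates, and for the same reason no replicate could be left out. No promoter ratio past 0.58 changed sign, and ARG3 in dAT stayed past it under all 7 alternatives. Relative to the median gene, the members' median ratios were -0.052 in dAT, -0.067 in dSnAC and -0.017 in CD, and with a window of -400 to -1 bp that of dSnAC was -0.19, above the all-gene median of -0.21. Members at or below the lower limit numbered 2, 1, 0 and 0 in dAT, dSnAC, CD and dSnf2 with a pseudocount of 0.25. The backgrounds there were 3.56%, 0.784%, 0.17% and 0.0681%. With a limit of 1 the members numbered 1, 1, 0 and 0. With a limit of 0.32 they numbered 28 in dAT, 20 in dSnAC and 7 in CD, while 1 member of dSnf2 was higher. The lower quartiles of all genes were -0.45, -0.35 and -0.23 in dAT, dSnAC and CD, so many other genes also passed 0.32 in dAT and dSnAC. Relative to the median gene the members at or below -0.58 numbered 1 in dAT, 1 in dSnAC and 0 in dSnf2 (backgrounds 1.12%, 0.477% and 0.119%). With the -400 bp window they numbered 1 for dSnAC and 0 for CD and dSnf2 (2.76%, 0.562% and 0.17%). In dSnf2 the count was 0 with the -200 bp window and with the mean call as scale (0.664% and 0.29%). Displaced +1 dyads numbered 13, 13, 13 and 12 at 10 bp, and 3, 2 and 3 in dAT, dSnAC and CD with a match within 50 bp. All-gene shares for the limits of 0.32 and 1, for these dyad settings and for the region settings of the next sentence are not given here. Narrower regions of 30 bp or more numbered 1 in CD and 0 in dSnf2, and wider ones 5 in dSnf2 with midpoints from -250 bp. Leaving out weak calls gave 2 displaced dyads in dAT and 7 narrower regions each in CD and dSnf2. It also turned the sign of these region differences: ARG1 to 183, 191 and 187 bp (dSnAC, CD, dSnf2), ARG8 to -11 (CD), ILV3 to -3 (dAT), BAT2 to -49, -53, -50 and -49, LYS9 to -57, -70, -58 and -53, LYS21 to 97 (dAT), ARO1 to 10 and 13 (dAT, dSnAC), ASN1 to -48 and -47 (CD, dSnf2) and ASN2 to -61 (dSnf2). The other 115 of 152 summary values, and 1012 of 1299 values of single genes, moved by less than their counting error or by less than 1.5 times for counts. The dSnAC list holds the fewest reads, and weak calls have the widest counting error.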
